A study of Mus musculus with 30 samples.

Results

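Genomic insertion sites of a piggyBac (PB) vector were compared between 5 PB livers, numbered 13 to 17, and the 12 PB livers numbered 1 to 12. Livers were assigned by the number in their label, and they are 5 and 12 of the 30 livers in the study. The other 13 livers came from mice treated with the Sleeping Beauty vector. All 17 PB livers came from mice in which Fah was knocked out and which were given PB gene therapy in vivo. Such mice model tyrosinemia type I (TT1), an inherited liver disease. Each DNA sample was taken from the lysate of a whole liver at the end of monitoring, so sites are not resolved by cell type. The labels do not say how livers 13 to 17 differ from livers 1 to 12, and they give no dose, promoter, strain, sex, age or length of monitoring for any of them. A shared property of livers 13 to 17 that the labels leave out, such as a batch or a protocol, cannot be told apart from the liver number.

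piggyBac is a DNA transposon that its transposase moves into TTAA target sites, and it leaves a copy of the target at each end of the insert. Its insertions are known to favour open chromatin in and around active genes. Fah is the last enzyme of tyrosine breakdown, and hepatocytes that regain it in a Fah-deficient liver survive and divide at the expense of those that do not. Insertions in corrected hepatocytes are therefore carried by clones of differing size.

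The deposited list of each liver gives positions spanning 4 bp, a strand and a whole number in column 4. A site here is a position and strand. What column 4 counts is not stated in the sources used here. It is called the support number of a site, on the assumption that it counts reads. Its smallest value was 3, so weaker sites are not seen. Livers 13 to 17 held 125321 site records and livers 1 to 12 held 1106977. The reads were amplified and carry no molecular identifiers, so a support number is not a count of cells.

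The first question was whether the shorter lists of livers 13 to 17 came with less sequencing. Nuclear sites numbered 23378 in PB13, 28110 in PB14, 40598 in PB15, 16364 in PB16 and 16870 in PB17. Livers 1 to 12 ran from 66528 to 124238 with a median of 90236, so the sets did not overlap. Support numbers summed to 1962673 in PB13, 3052905 in PB14, 2431104 in PB15, 2357403 in PB16 and 1994170 in PB17. In livers 1 to 12 these totals ran from 2185909 in PB7 to 8288669 in PB3, 1.91-fold higher (two-sided exact permutation test over livers on log2 values, p = 0.00339). Fold differences between sets of livers are ratios of geometric means. The totals overlapped where the site numbers did not. PB7 listed 124238 sites from a total of 2185909, whereas PB14 listed 28110 from 3052905.

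The support total of every liver was then thinned at random to that of PB13, and sites left with at least 3 were counted. The expected number was 24764 ± 9752 (SD, n = 5) in livers 13 to 17 and 88206 ± 20980 (SD, n = 12) in livers 1 to 12. The ratio was 3.68-fold, against 3.81-fold in the full lists (exact permutation test, p = 0.000162, the smallest value that 6188 splits allow). It was 3.36-fold against livers 1 to 6 and 4.02-fold against livers 7 to 12 (exact permutation test, p = 0.00216 each, the smallest that 5 against 6 livers allow). Each liver kept at least 91.7% of its sites. Most listed sites had support well above 3, so this thinning could remove few of them. It matched support totals, which stand for sequencing only if column 4 counts reads. The amount of DNA and the number of corrected cells sampled were not tested.

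**Figure D1:**
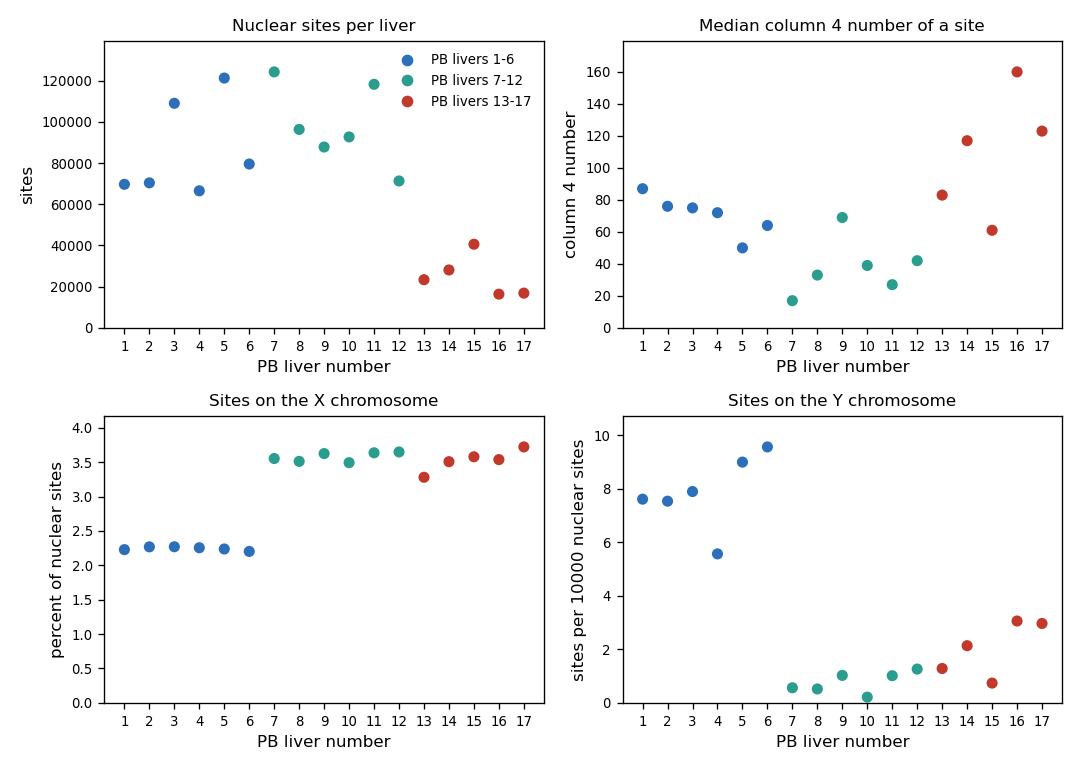
Nuclear sites, median support number (column 4), sites on X as percent of nuclear sites and sites on Y per 10000 nuclear sites, each against the PB liver number, with 1 point per liver. Livers 13 to 17 hold 16364 to 40598 sites against 66528 to 124238 in livers 1 to 12, and their X shares of 3.28% to 3.72% lie with livers 7 to 12 and apart from livers 1 to 6.

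The X share of livers 13 to 17 was close to that of livers 7 to 12, and their Y sites were also fewer than in livers 1 to 6. The X chromosome held 3.28%, 3.51%, 3.58%, 3.54% and 3.72% of nuclear sites in PB13 to PB17. It held 3.49% to 3.65% in livers 7 to 12 and 2.20% to 2.27% in livers 1 to 6. Against all of livers 1 to 12, the X share in livers 13 to 17 was 0.614 percentage points higher and did not pass (exact permutation test, p = 0.0834, adjusted p = 0.100). It was 1.28 percentage points above livers 1 to 6 (exact permutation test, p = 0.00216). Livers 1 to 6 are set apart here by these same shares, so that p-value is not independent evidence of a difference. The difference from livers 7 to 12 was -0.0529 percentage points (exact permutation test, p = 0.511). Sites on Y numbered 3, 6, 3, 5 and 5 in PB13 to PB17, 2 to 12 in livers 7 to 12 and 37 to 109 in livers 1 to 6. Per 10000 nuclear sites this was 0.739 to 3.06 in livers 13 to 17, 0.216 to 1.26 in livers 7 to 12 and 5.56 to 9.56 in livers 1 to 6. On this scale PB13, PB14, PB16 and PB17 lay above all of livers 7 to 12. Because the X and Y shares of livers 1 to 12 fall into these ranges by liver number, both ranges of numbers are used below as comparison sets of their own. Livers 1 to 6 and livers 7 to 12 are not groups of the labels.

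The median support of a site was higher in livers 13 to 17 than in livers 1 to 12, with overlap. It was 83 in PB13, 117 in PB14, 61 in PB15, 160 in PB16 and 123 in PB17. Medians in livers 1 to 12 ran from 17 to 87 around a middle value of 57, and 3 of 5 livers among 13 to 17 lay above all of them. The ratio was 2.10-fold (exact permutation test on log2 values, p = 0.00953, adjusted p = 0.0143 over 12 measures). Against livers 7 to 12 the log2 difference was 1.58 (exact permutation test, p = 0.00649). Against livers 1 to 6 it was 0.57 and did not pass (exact permutation test, p = 0.0563). The 90th percentile was 93 to 226 in livers 13 to 17 and 27 to 139 in livers 1 to 12, whereas the 10th percentile was 15 to 22 and 7 to 19. Sites with a number of 10 or less made up 7.12% to 8.30% of livers 13 to 17 and 6.79% to 19.02% of livers 1 to 12.

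The shape of the support distribution differed less than its level. The log2 ratio of the 90th over the 10th percentile averaged 3.06 ± 0.51 (SD, n = 5) in livers 13 to 17 and 2.59 ± 0.42 (SD, n = 12) in livers 1 to 12 (p = 0.0656 by exact permutation, adjusted p = 0.0875). PB16 was highest, at 3.91. It passed against livers 7 to 12, with a difference of 0.84 (exact permutation test, p = 0.00216), and did not pass against livers 1 to 6, with a difference of 0.11 (exact permutation test, p = 0.773). With a column 4 minimum of 10 the difference from livers 1 to 12 was -0.0073 (exact permutation test, p = 0.960). The best supported 1% of sites held 3.23% ± 0.45 of the support total in livers 13 to 17 and 3.35% ± 0.24 in livers 1 to 12 (SD, n = 5 and 12; exact permutation test, p = 0.494). The highest share of any liver was 3.97%, in PB13, and without PB13 the difference went from -0.118 to -0.302 percentage points (exact permutation test, p = 0.0418).

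Exact reuse of positions was compared next. For a pair of livers, the target number is the product of their site numbers divided by the sites they share at the same position and strand. It is the number of equally used targets that would give the observed overlap, so a lower value means more reuse. If targets were equally used it would not depend on list length. Between PB13 and PB14, for example, 444 sites were shared and the target number was 1480080. Among the 10 pairs within livers 13 to 17 it ran from 1234030 for PB15 and PB17 to 1546620 for PB13 and PB17, with a geometric mean of 1425020. The 60 pairs between the sets ran from 1455880 to 1841590 with a geometric mean of 1638420. The 66 pairs within livers 1 to 12 ran from 1618210 to 1998790 with a geometric mean of 1809600. All 10 pairs within livers 13 to 17 therefore lay below all 66 pairs within livers 1 to 12.

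Pairs share livers and are not independent, so whole livers were relabelled and the pair statistic was recomputed for each of 6188 splits. Target numbers within livers 13 to 17 were lower by a log2 difference of -0.34 than within livers 1 to 12 and of -0.20 than between the sets (exact permutation tests, p = 0.000162 each, adjusted p = 0.00097 each). Both differences passed under each alternative tried, livers 1 to 6 and livers 7 to 12 alone included. Thinning was 1 of these, but random thinning leaves the expected target number unchanged, so it could not test the part of list length. With every liver thinned to 16364 sites, the size of PB16, a pair within livers 13 to 17 shared 1.15% of its sites (range 1.07% to 1.302%). Pairs between the sets shared 0.998% (0.885% to 1.13%) and pairs within livers 1 to 12 shared 0.906% (0.818% to 1.01%). The same order held with strand reversed: pairs on opposite strands gave target numbers of 1541450 within livers 13 to 17, 1695930 between the sets and 1863060 within livers 1 to 12.

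**Figure D2:**
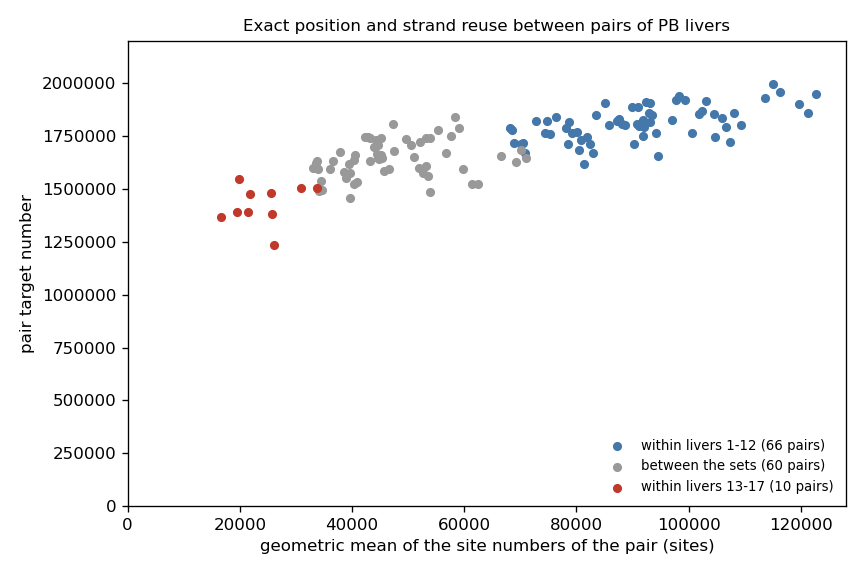
Target number of each pair of PB livers, against the geometric mean of the site numbers of the pair, for the 10 pairs within livers 13 to 17, the 60 pairs between the sets and the 66 pairs within livers 1 to 12. Pairs within livers 13 to 17 lie at the lower left, at 1234030 to 1546620, and the 3 kinds of pair follow a rising band.

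A relation of the target number to the site number among livers 1 to 12 did not pass after adjustment. Over these 12 livers, the mean target number of a liver with the other 11 had Pearson's r = 0.613 with its site number (permutation test, p = 0.0379, adjusted p = 0.0631 over 5 relations) and Spearman's rho = 0.566 (permutation test, p = 0.0599, adjusted p = 0.0999). Without PB5 and PB7, the livers farthest from the median, r was 0.410. Within livers 1 to 6 r was 0.928 and within livers 7 to 12 it was 0.726. No liver of 1 to 12 was as small as a liver of 13 to 17, so the part of site number in the lower target numbers was not tested.

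Positions that recurred in livers 13 to 17 were mostly positions already seen in livers 1 to 12. Livers 13 to 17 covered 117530 positions with strand ignored, of which 42647 (36.3%) were listed in at least 1 of livers 1 to 12. Of 111693 positions found in 1 of the 5 livers, 33.6% were also in livers 1 to 12, and of the 5837 found in 2 or more, 87.0% were. Among positions in 3 of the 5 livers this share was 621 of 640, and it was 66 of 66 and 10 of 10 among positions in 4 and in 5 of them. Just 19 of the 716 positions in 3 or more of livers 13 to 17 were absent from the lists of livers 1 to 12. In the other direction, 536 of 642 positions held by 10 or more of livers 1 to 12 (83.5%) occurred in livers 13 to 17. Merged over livers 1 to 12 there were 833852 positions of any kind, against the 42647 shared with livers 13 to 17. Liver by liver, 28.6% (PB14) to 30.6% (PB15) of sites coincided in position and strand with livers 1 to 12, and 5.34% (PB15) to 6.82% (PB17) with the other livers of 13 to 17. These shares depend on how many sites the partner lists hold.

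All 10 positions shared by the 5 livers were also in at least 5 of livers 1 to 12, and 3 of them were in all 12. Support at these 3 varied between livers. On chromosome 8 from 15834144 to 15834147 (GRCm39) it was 30, 65, 95, 63 and 33 in PB13 to PB17 and 15 to 391 in livers 1 to 12. All records there were on the minus strand, 5 in livers 13 to 17 and 12 in livers 1 to 12. On chromosome 11 from 3096764 to 3096767 support was 157, 11, 303, 207 and 157, with 4 plus-strand and 3 minus-strand records. In livers 1 to 12 it was 47 to 318, with 8 plus-strand and 12 minus-strand records. On chromosome 15 from 10378786 to 10378789 support was 198, 87, 134, 36 and 171, with 2 plus-strand and 4 minus-strand records. In livers 1 to 12 it was 8 to 629, with 12 plus-strand and 10 minus-strand records. Against liver medians of 83, 117, 61, 160 and 123, support was above the median in 1 of 5 livers on chromosome 8, in 4 of 5 on chromosome 11 and in 3 of 5 on chromosome 15. Each position has 1 number per liver here, also where a liver listed both strands, whereas the medians are of single sites. No annotation of this build was used, so the positions were not assigned to genes.

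Support at reused positions was compared with that at private ones, again in livers thinned to 16364 sites. Reused sites were those found in any other thinned PB liver, 11.7% to 12.5% of sites in livers 13 to 17 and 10.8% to 11.9% in livers 1 to 12. Their median support exceeded that of private sites in every liver, by a log2 difference of 0.043 ± 0.011 (SD, n = 5) in livers 13 to 17 and 0.090 ± 0.019 (SD, n = 12) in livers 1 to 12. In PB16 the medians were 163.7 at reused and 158.9 at private sites, and in PB3 they were 80.3 and 73.8. The gap between reused and private sites was smaller in livers 13 to 17 (p = 0.000485 by exact permutation, adjusted p = 0.0019). PB12, at 0.039, was the one liver of 1 to 12 inside the range of livers 13 to 17, which was 0.035 to 0.062. Support numbers are whole numbers, so medians move in coarser log2 steps where support is low. In PB7 the medians were 18 at reused and 17 at private sites, a log2 difference of 0.082. The part of the support level in the smaller gap was not tested.

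Reuse within a liver can be seen where a position is listed on both strands. At 16364 sites per liver, 0.456%, 0.537%, 0.555%, 0.534% and 0.515% of positions were listed on both strands in PB13 to PB17. Livers 1 to 12 ran from 0.410% to 0.498%, and 4 of 5 livers among 13 to 17 lay above them. The ratio was 1.14-fold (exact permutation test on log2 values, p = 0.00145, adjusted p = 0.00323). Random thinning lowers the expected share in proportion to list length, so it could not test the part of list length. No liver of 1 to 12 was as small as a liver of 13 to 17. PB16 was the smallest list and entered whole, whereas the other values are means of draws. In the full lists the direction was the opposite, 0.530% to 1.40% against 1.90% to 3.34% in lists of unequal length, where a longer list holds more such pairs.

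Shared positions were on the same strand slightly more often than on opposite strands. The ratio of same-strand to opposite-strand coincidences had a geometric mean of 1.08 within livers 13 to 17 (0.934 to 1.26 over 10 pairs) and 1.03 within livers 1 to 12 (0.992 to 1.07 over 66 pairs). The log2 difference was 0.071 (exact permutation test, p = 0.00162, adjusted p = 0.00323). The call was lost without PB16, at 0.023 (exact permutation test, p = 0.237), and with a column 4 minimum of 10, at 0.032 (exact permutation test, p = 0.0598). The share of sites on the minus strand was 51.1% ± 0.4 and 50.9% ± 0.5 (SD, n = 5 and 12), a difference that did not pass (exact permutation test, p = 0.311).

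Many of the densest insertion windows were shared, more of them at 1 Mb than at 100 kb. The densest 1 Mb windows of livers 13 to 17 began at 150 Mb of chromosome 4, 86 Mb of chromosome 11, 21 Mb of chromosome 14 and both 87 and 92 Mb of chromosome 5 (GRCm39), and 4 of these 5 were also among the 5 densest of livers 1 to 12. The window on chromosome 4 held 17.5 ± 2.0 sites per 10000 nuclear sites in livers 13 to 17 and 15.6 ± 1.3 in livers 1 to 12 (SD, n = 5 and 12), and its log2 difference of 0.21 ± 0.10 (SE) did not pass (edgeR, adjusted p = 0.732). At 87 Mb of chromosome 5, the window held 17.97, 11.7, 17.2, 18.3 and 16.0 per 10000 in PB13 to PB17 and 15.1 to 18.5 in livers 1 to 12. Among the 50 densest windows of each set, 36 were shared at 1 Mb and 25 at 100 kb, out of 2404 and 16755 windows tested. Of the 5 densest 100 kb windows of livers 13 to 17, 3 were also among the 5 densest of livers 1 to 12. The first of them, on chromosome 14 from 21.1 Mb, was the densest in both sets, at 5.09 ± 0.73 and 4.43 ± 0.63 per 10000 (SD, n = 5 and 12).

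Window densities were tested with edgeR's quasi-likelihood test, with the nuclear sites of each liver as its library size and Benjamini-Hochberg adjustment over all windows. At 1 Mb, 1 of 2404 windows passed (0.0416%), and it was lower in livers 13 to 17. For scale, livers 7 to 12 against livers 1 to 6 gave 3 of 2407 (0.125%). At 100 kb, 1 of 16755 windows passed (0.00597%), higher in livers 13 to 17, against 1 of 19552 (0.00511%) between livers 7 to 12 and livers 1 to 6. These counts of calls are not at equal power. Livers 13 to 17 averaged 25064 nuclear sites each, livers 1 to 6 averaged 86066 and livers 7 to 12 averaged 98428. At an unadjusted p under 0.05 there were 161 windows of 1 Mb (6.70%) and 1056 of 100 kb (6.30%). The log2 difference was within 0.5 of 0 in 90.3% of 1 Mb windows, and its median SE was 0.23. At 100 kb the median SE was 0.73, with a median of 5 sites per window over the 5 livers, so a 2-fold difference in a window of that depth was not detectable.

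The 1 Mb window that passed lies on chromosome 8 from 101000001 to 102000000. It held 0, 1, 1, 0 and 0 sites in PB13 to PB17 and 4 to 20 in each of livers 1 to 12, or 0.120 ± 0.169 and 1.35 ± 0.46 per 10000 nuclear sites (SD, n = 5 and 12). The sets did not overlap: the highest liver of 13 to 17 had 0.356 per 10000 and the lowest of livers 1 to 12 had 0.601. The fitted log2 difference was -2.97 ± 0.69 (SE; edgeR, adjusted p = 0.0455). Summed over livers, 2 against 151 sites gave a ratio of 0.117, with an exact Clopper-Pearson interval of 0.0140 to 0.430 at 95% that covers counting error only. The window was picked by these same counts, which the interval does not allow for. The direction held under all 14 alternatives, with adjusted p from 0.0444 to 0.441, but the call was lost under 12 of them, the omission of any single liver of 13 to 17 included.

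The 100 kb window that passed, on chromosome 9 from 100100001 to 100200000, rested on PB16 alone. PB16 held 10 sites there, PB15 held 1 and PB13, PB14 and PB17 held none, whereas livers 1 to 12 held 8 in all. The fitted log2 difference was 3.35 ± 0.71 (SE; edgeR, adjusted p = 0.0348), and without PB16 the window no longer reached the minimum for testing. The 10 sites of PB16 were plus-strand positions at consecutive bases, from 100107843 to 100107852, with support numbers of 3 to 24 that summed to 135, below the PB16 median of 160 for a single site. When same-strand sites within 10 bp were merged, the window also fell under that minimum and no 100 kb window passed.

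**Figure D3:**
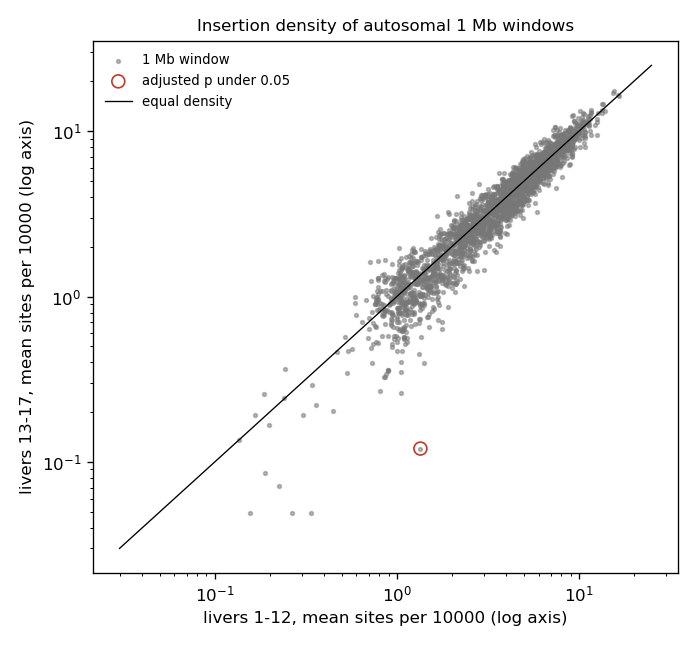
Mean insertion density of each autosomal 1 Mb window in livers 13 to 17 (vertical, log axis) against livers 1 to 12 (horizontal, log axis), in sites per 10000 nuclear sites, with a line of equal density. The 2404 windows follow the line, and the circled window on chromosome 8, at 0.120 against 1.35, is the single one with an adjusted p under 0.05.

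Densities were a little more uneven in livers 13 to 17. Unevenness was measured as the coefficient of variation (CV) of counts over autosomal windows after the counting variance was taken off. Over 100 kb windows it was 1.14, 1.15, 1.15, 1.19 and 1.17 in PB13 to PB17 and 1.05 to 1.16 in livers 1 to 12. The difference of 0.0678 passed (exact permutation test, p = 0.000646, adjusted p = 0.0019), also against livers 1 to 6 (0.0852, p = 0.00216) and livers 7 to 12 (0.0504, p = 0.0152, exact permutation tests). With same-strand sites within 10 bp merged it was 0.0285 and did not pass (exact permutation test, p = 0.0803). Over 1 Mb windows the difference of 0.0256 passed against livers 1 to 12 (p = 0.00501 by exact permutation, adjusted p = 0.0086) and was 0.0183 against livers 7 to 12 (exact permutation test, p = 0.0823).

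Windows were also ranked by density on livers that then stayed out of the comparison. The densest 10% of 1 Mb windows, ranked on livers 7 to 12, held 23.3% ± 0.3 of autosomal sites in livers 13 to 17 and 22.7% ± 0.3 in livers 1 to 6 (SD, n = 5 and 6; exact permutation test, p = 0.00649, adjusted p = 0.0519 over 8 comparisons). Ranked on livers 1 to 6, it held 23.3% ± 0.3 in livers 13 to 17 and 23.2% ± 0.4 in livers 7 to 12 (exact permutation test, p = 0.558). None of the 8 comparisons passed after adjustment, and 2 had an unadjusted p under 0.05 by the exact permutation test. Across whole autosomes, 0 of 19 shares passed (0%; exact permutation tests, lowest adjusted p = 0.0563), 6 had an unadjusted p under 0.05, and no mean differed by more than 0.19 percentage points. The largest mean difference, 0.19, was on chromosome 7 (exact permutation test, p = 0.0512). The lowest p was on chromosome 10 (exact permutation test, p = 0.00436), with 5.33% ± 0.09 of autosomal sites in livers 13 to 17 and 5.47% ± 0.07 in livers 1 to 12 (SD, n = 5 and 12). Over thinned livers, the rank correlation of 1 Mb window counts had a median of 0.738 within livers 13 to 17 (10 pairs), 0.732 between the sets (60 pairs) and 0.732 within livers 1 to 12 (66 pairs). These pairs share livers and the windows are not independent, so the correlations are a description.

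**Figure D4:**
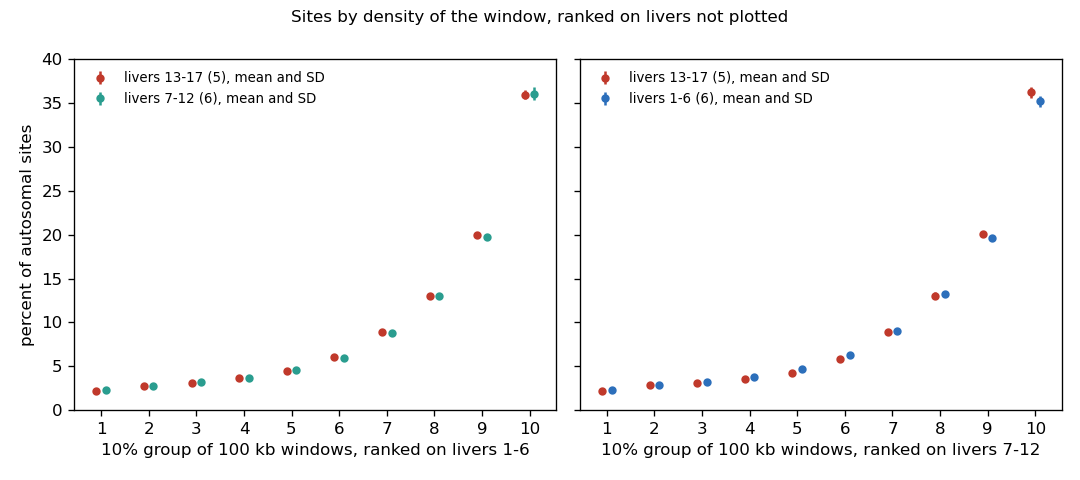
Percent of autosomal sites in each 10% of 100 kb windows, from the emptiest (1) to the densest (10), with windows ranked on livers 1 to 6 (left) or livers 7 to 12 (right) and plotted for livers 13 to 17 and the livers not used for ranking, as mean and SD. The densest 10% hold 36.0% in livers 13 to 17 against 36.1% in livers 7 to 12, and 36.2% against 35.2% in livers 1 to 6.

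Closely spaced sites were examined last, a measure added after the data were seen. Target sites of piggyBac cannot begin at adjacent bases of the same strand, yet each list held same-strand sites 1 bp apart. Such pairs numbered 2.15, 2.17, 1.73, 2.47 and 2.25 per 100 sites in PB13 to PB17 and 0.662 to 2.17 in livers 1 to 12. The ratio of livers 13 to 17 over livers 1 to 12 was 1.38 (exact permutation test, p = 0.0465). It did not pass against livers 1 to 6 (1.13-fold, exact permutation test, p = 0.104) and passed against livers 7 to 12 (1.69-fold, exact permutation test, p = 0.0108). With a column 4 minimum of 10 it was 2.43-fold (exact permutation test, p = 0.0381). Leaving out PB13, PB14, PB16 or PB17 took p to between 0.0786 and 0.109 (exact permutation test).

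Runs of 2 or more consecutive bases held 2.56% (PB15) to 3.54% (PB16) of sites in livers 13 to 17 and 1.14% to 3.19% in livers 1 to 12. Runs of 4 or more held 1.46% ± 0.21 of sites in livers 13 to 17 and 0.943% ± 0.384 in livers 1 to 12 (SD, n = 5 and 12; exact permutation test, p = 0.0147). The share was 1.19% in livers 1 to 6 and 0.694% in livers 7 to 12 (exact permutation tests against livers 13 to 17, p = 0.0455 and p = 0.00649). The longest run had 11 sites, in PB9. In each liver the median summed support of such a run was 0.890 to 1.35 times the median support of a single site. The frequency of pairs 1 bp apart moved with the median support of the liver. Over livers 1 to 12, Pearson's r was 0.946 (permutation test, p = 1e-05, the smallest that 100000 resamples give, adjusted p = 5e-05 over 5 relations) and Spearman's rho was 0.881 (permutation test, p = 0.00035, adjusted p = 0.00175). Without PB1 and PB7, r was 0.931, and it was 0.865 within livers 1 to 6 and 0.962 within livers 7 to 12.

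**Figure D5:**
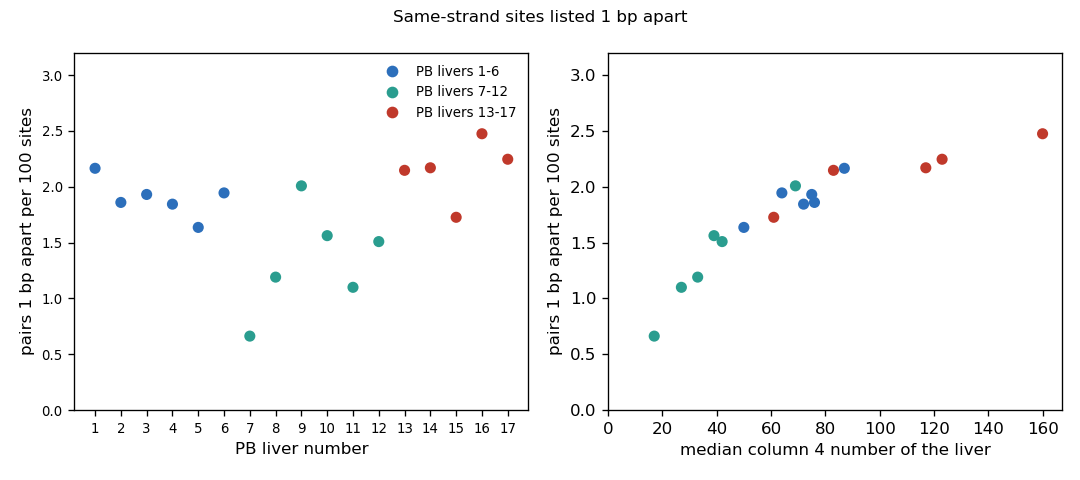
Pairs of same-strand sites 1 bp apart per 100 sites, against the PB liver number (left) and against the median support number, column 4, of the liver (right), with 1 point per liver. PB7 has the lowest values, 0.662 pairs and a median of 17, and PB16 the highest, 2.47 pairs and a median of 160.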

How the data were processed

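Per the labels' protocols, enzymatically fragmented liver DNA received a linker, was selected by size and went through nested PCRs, the first with a biotinylated primer on the transposon. Cutadapt, BWA and GRCm39 are named, without versions, per the submitters' processing notes. The deposited list of each liver holds positions, strands and a column 4 number of unstated meaning. The deposited merged table of livers 1 to 12 gives a count per position, which equalled the liver and strand records at all 833852 positions and was used for that check alone.

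Sites were counted per 1 Mb or 100 kb autosomal window. Those averaging at least 1 site per liver went into edgeR 4.0.16 in R 4.3.3. On simulated counts, its quasi-likelihood test missed part of the 2-fold differences at 1 Mb and most of them at 100 kb. It also made some false calls at 1 Mb. The SE of a log2 difference was derived as its size over the square root of the F value of that test. Single values were compared by two-sided exact permutation over livers, with 12 measures adjusted together by the Benjamini-Hochberg method (Python 3.11.15, numpy 2.4.6). Thinned values of the per-liver and pair measures are means of 20 draws. Thinned window counts were not averaged in this way. Named windows are those past the threshold and the 5 densest at each size in livers 13 to 17, and named positions are the 3 held by most of livers 13 to 17, with ties settled by the number of livers 1 to 12. The livers, measures and rules were chosen with earlier results of these data known. Each liver was 1 replicate. Alternatives were other comparison livers, thinning, a column 4 minimum of 10, merging within 10 bp, omission of reused positions or of single livers, and other scalings, filters and tests. Windows of merged sites, livers 7 to 12 against livers 1 to 6, the matched support total, sites 1 bp apart and their relation to support were added after the data were seen. The tables at hand describe another mouse build, so target motifs and gene context are not analysed here.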

Additional observations from a re-analysis of the deposited data

Results flagged for a closer look

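Liver 15 stood apart from livers 13, 14, 16 and 17 in its share of autosomal sites on chromosome 19, which was 3.83% against 3.57% to 3.63%. PB16 stood apart in the 100 kb window of chromosome 9 from 100.1 Mb, with 6.11 sites per 10000 nuclear sites against 0 to 0.246 in the other 4 livers. That window was examined because it had passed, and its call rested on PB16, so this flag follows from the choice. Among 43 groups of 5 values examined in this way, chance alone would single out about 1 in 20. That rate does not hold for windows picked by these same counts. Outside the nuclear chromosomes, the PB lists held 16 mitochondrial sites, 1 in livers 13 to 17 and 15 in livers 1 to 12, and these entered no comparison.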

How the results depend on the processing

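Of 83 values of the compared measures under other settings, single-liver omissions aside, 55 kept their direction and side of the threshold. The target number differences did so throughout, from -0.38 to -0.27 (log2) against pairs within livers 1 to 12 and from -0.24 to -0.14 against pairs between the sets. Among these settings, thinning does not change the expected target number. Positions listed on both strands turned to -1.74 (log2) with all sites, -1.70 with a column 4 minimum of 10 and -1.73 after merging within 10 bp; these settings leave the lists at their unequal lengths. Of the values that did not pass in the first place, a column 4 minimum of 10 turned the support spread to -0.0073 and the minus-strand difference to -0.36 percentage points, and livers 7 to 12 turned the X share difference to -0.053. Against livers 7 to 12 the 1 Mb CV difference fell to 0.0183 and the support spread rose to 0.84, whereas the spread was 0.11 against livers 1 to 6 and 0.21 with merging. Against livers 1 to 6 the median support difference was 0.57 (log2) and the X share difference 1.28 percentage points. Merging took the 100 kb CV difference to 0.0285, and a column 4 minimum of 10 took the same-strand difference to 0.032 and ended its call. With single livers left out, the same-strand difference ranged from 0.023 to 0.11, the support spread from 0.26 to 0.58 and the top 1% share from -0.30 (without PB13, where it passed) to -0.026 percentage points. The spread passed without PB15, and the same-strand call was lost without PB16.

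Calls of 1 Mb windows were 0 with thinning, TMM, limma-voom, reused positions left out, a column 4 minimum of 10, livers 1 to 6, livers 7 to 12 or any one of livers 13 to 17 left out (0 to 0). Calls of 100 kb windows were 11 with limma-voom, all higher, 2 without reused positions, 0 to 3 with single livers of 13 to 17 left out (3 without PB13, 0 without PB16), and 0 with thinning, TMM, no filter, a column 4 minimum of 10, merging, livers 1 to 6 or livers 7 to 12. TMM moved the median 100 kb window to -0.46 and limma-voom to 0.35 (log2), from -0.067. Among the densest windows, none of which passed, the log2 difference changed sign as follows. On chromosome 14 from 21 Mb it was -0.14 with thinning, -0.12 without reused positions and -0.011 to 0.072 with single livers left out (below 0 without PB14 or PB17). On chromosome 5 from 87 Mb it was 0.030 with thinning, 0.011 against livers 1 to 6 and -0.0999 to 0.056 with single livers left out (above 0 without PB14). At 100 kb, TMM gave -0.22 on chromosome 14, -0.26 on chromosome 1, -0.054 on chromosome 12 and -0.29 on chromosome 2, in the windows that begin at 21.1, 67.1, 75.5 and 126.7 Mb. Leaving out reused positions gave -0.27 on chromosome 14 and -0.24 on chromosome 2, and thinning gave -0.072 on chromosome 2. With single livers left out, chromosome 1 ranged from -0.14 (without PB13) to 0.46 and chromosome 2 from -0.034 (without PB14) to 0.24. The cause of these changes was not tested. No paired analysis was possible because livers 13 to 17 and livers 1 to 12 share no liver number.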

Other observations

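The 3 windows of 1 Mb that differed between livers 7 to 12 and livers 1 to 6 are given here with the values of livers 13 to 17. On chromosome 4 from 6 Mb, livers 1 to 6 averaged 4.99 and livers 7 to 12 averaged 7.67 sites per 10000 nuclear sites (edgeR, log2 difference 0.61, adjusted p = 0.00092), and PB13 to PB17 held 4.28, 6.05, 6.16, 8.56 and 4.74. On chromosome 7 from 25 Mb the averages were 6.24 and 8.47 (edgeR, log2 difference 0.43, adjusted p = 0.0491), and PB13 to PB17 held 7.27, 7.47, 8.37, 11 and 11.9. The highest of livers 1 to 6 held 7.17, and livers 7 to 12 ran from 7.81 to 9.39. PB13 and PB14 thus lay between these ranges, and PB16 and PB17 lay above both. On chromosome 1 from 70 Mb the averages were 2.91 and 1.66 (edgeR, log2 difference -0.78, adjusted p = 0.0491), and PB13 to PB17 held 4.71, 2.49, 1.72, 2.44 and 0.593. These windows were singled out by livers 1 to 12 alone, and the values of livers 13 to 17 are given without a test.

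PB16 shared 275 same-strand and 231 opposite-strand sites with PB13, 331 and 273 with PB14, 481 and 414 with PB15, and 202 and 202 with PB17. Differences between pairs were not tested. PB15 and PB17 shared 555 and 441, the highest ratio of the 10 pairs at 1.26. PB13 and PB17 shared 255 and 273, the lowest at 0.934.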
